A study of Mus musculus with 24 samples.

Results

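Regions acetylated on lysine 27 of histone H3 (H3K27ac) in both control limb buds, and in neither Sox9-deficient limb bud, were collected from 4 peak lists of mouse embryos. Peaks of the 4 lists that shared at least 1 bp were merged into 49367 union regions, and 809 of these (1.64%) carried a peak at both control stages and none from either Sox9-deficient sample. These 809 are called the both-controls-only regions here. The groups were control limb buds at embryonic day E11.5, Sox9null limb buds at E11.5, control limb buds at E12.5 and Sox9cKO limb buds at E12.5, with 1 library each. The alleles, the way Sox9 was removed, the genotype of the controls, the strain and any pooling of embryos are not given in the sources used. The lists held 28419 to 36937 peaks covering 52.0 to 66.7 Mb. For the Sox9-deficient samples, stage and genotype in the sample title go against those in the name of the deposited list. Titles were followed here, and since the rule treats both lists alike, the same 809 regions result either way. There were no replicates, so no difference between conditions was tested and every value describes these libraries. The regions were chosen by the presence and absence of peaks in all 4 lists, so scores, widths and gaps to other peaks are given as descriptions.

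H3K27ac is laid down by the acetyltransferases p300 and CBP at active promoters and enhancers. SOX9 is the transcription factor that limb mesenchyme needs to form cartilage, and with its partners SOX5 and SOX6 it binds enhancers of cartilage matrix genes. In whole limb buds, fewer marked cells and less mark per cell cannot be told apart.

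Few promoters were overlapped by both-controls-only regions. Of 32851 RefSeq promoter windows (250 bases before to 50 after a transcription start, build GRCm38.p6), 58 (0.177%) from 50 genes were overlapped by a both-controls-only region. The 570 regions in both Sox9-deficient lists only overlapped 0.0883% of the windows, and the 19792 regions in all 4 lists 38.8%. These are shares of promoters, which also move with the number of regions in a class. The promoter windows of 4 protein-coding genes are shown. Chad and Runx3 belong to the cartilage matrix and chondrogenic regulator lists used here, and Hdac9 and Filip1l held the highest-ranked regions of all such promoters. Each is written 5' to 3' on the strand of its gene, and capitals mark CpG dinucleotides.
Chad: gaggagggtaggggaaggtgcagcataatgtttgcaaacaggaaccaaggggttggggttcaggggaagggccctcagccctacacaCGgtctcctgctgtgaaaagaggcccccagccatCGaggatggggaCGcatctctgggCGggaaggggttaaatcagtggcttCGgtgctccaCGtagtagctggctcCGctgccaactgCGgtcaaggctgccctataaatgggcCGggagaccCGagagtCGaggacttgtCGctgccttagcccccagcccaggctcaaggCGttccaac
Runx3: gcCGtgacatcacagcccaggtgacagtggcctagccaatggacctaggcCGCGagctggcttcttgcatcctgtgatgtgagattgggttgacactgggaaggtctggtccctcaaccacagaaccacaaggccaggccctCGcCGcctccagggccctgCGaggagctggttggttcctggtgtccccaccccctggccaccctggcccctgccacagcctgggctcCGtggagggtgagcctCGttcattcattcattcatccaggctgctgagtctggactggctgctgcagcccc
Hdac9: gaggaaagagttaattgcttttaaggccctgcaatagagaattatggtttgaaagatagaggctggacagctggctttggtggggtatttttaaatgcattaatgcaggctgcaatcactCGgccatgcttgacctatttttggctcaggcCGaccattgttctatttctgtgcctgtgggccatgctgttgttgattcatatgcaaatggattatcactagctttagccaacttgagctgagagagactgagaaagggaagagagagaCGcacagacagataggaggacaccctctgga
Filip1l: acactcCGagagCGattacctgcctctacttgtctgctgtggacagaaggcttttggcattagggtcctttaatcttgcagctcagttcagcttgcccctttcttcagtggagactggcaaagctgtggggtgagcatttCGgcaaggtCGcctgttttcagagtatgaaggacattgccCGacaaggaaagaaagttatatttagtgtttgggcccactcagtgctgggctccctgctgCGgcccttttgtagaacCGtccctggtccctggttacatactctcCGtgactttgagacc

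The window of Chad, which encodes the cartilage matrix protein chondroadherin, lay at chr11:94564797-94565096 on the plus strand and held 13 CpG. The window of Runx3, a Runt factor of chondrocyte maturation, lay at chr4:135120395-135120694 on the plus strand and held 8 CpG. The window of Hdac9, a class IIa histone deacetylase gene, lay at chr12:34528840-34529139 on the minus strand with 3 CpG. It belongs to an internal start, since its region lay inside the gene, 387422 bp from the nearer gene end. The window of Filip1l lay at chr16:57353027-57353326 on the plus strand with 8 CpG. The 58 windows held a median of 7 CpG, as did all promoters (7), against 21.5 in the 12734 windows overlapped by regions present in all 4 lists. Their median GC content was 53.0%, against 61.7% in windows overlapped by regions of all 4 lists and 52.7% in all windows. The SOX-type words ACAATG and also ACAAAG and also ACAATAG were searched on both strands, and a window may hold several. At least 1 of them occurred in 13 of the 58 windows (22.4%), against 20.1% of windows overlapped by regions of all 4 lists and 30.1% of all windows. Of the windows shown, that of Hdac9 held 1 ACAATG and the other 3 held none of these words.

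The both-controls-only regions were a small class with low scores. Of the 23091 regions marked in both controls, 3.50% had no Sox9-deficient peak. Of the 22668 regions marked in both Sox9-deficient lists, 570 (2.51%) had no control peak, and these 570 made up 1.15% of all regions. The order of these classes turned when equal numbers of top-scoring peaks were taken per list, with 456 regions in both controls only and 585 in both Sox9-deficient lists only. Among regions present in exactly 2 lists, E11.5 control plus labelled Sox9cKO had 3186 and E12.5 control plus labelled Sox9null had 1819, both across stages by title. Within a stage by title, E12.5 control plus labelled Sox9cKO had 972 and E11.5 control plus labelled Sox9null had 312. The pair of controls thus held fewer regions than 3 of the 4 pairs of a control with a Sox9-deficient list and more than the other. If the names of the deposited lists are right rather than the titles, the pairs with 3186 and 1819 are the ones within a stage.

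**Figure D1:**
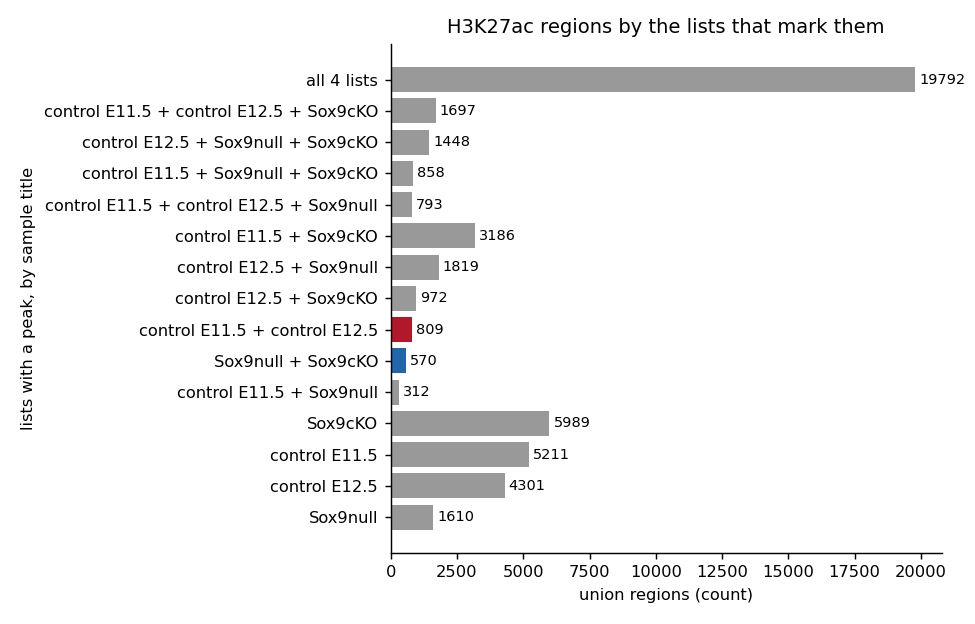
Number of union regions (x axis, count) for each combination of H3K27ac peak lists that mark them (y axis, by sample title), with both controls only in red and both Sox9-deficient lists only in blue. The 809 both-controls-only regions exceed the 570 in both Sox9-deficient lists only, and are fewer than the 3186, 1819 and 972 regions but more than the 312 regions of the 4 pairs of a control with a Sox9-deficient list.

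Scores were ranked within each list, as the percentage of that list's peaks with a lower score. In the E11.5 control the both-controls-only regions had a median percentile of 22.0 (range 0.0222 to 65.7), and in the E12.5 control a median of 20.9 (range 0.120 to 73.6). A percentile above 50 in both controls was reached by 5 regions (0.618%) and above 25 in both by 156 (19.3%), and 393 (48.6%) ranked higher at E12.5 than at E11.5. The regions were narrow, with a median width of 1261 bp against 2439 bp for regions in all 4 lists and 1494 bp for all regions. The regions in both Sox9-deficient lists only (1302 bp) and in E11.5 control plus labelled Sox9cKO only (1101 bp) were of like width. The share of regions of both controls that lacked a Sox9-deficient peak fell with rank, from 40.7% of 221 regions at a mean percentile up to 10, over 14.3% of 1717 at 20 to 30 and 1.66% of 2648 at 40 to 50, to 0 of 3204 at 70 to 80, 0 of 3306 at 80 to 90 and 0 of 3194 above 90. The share of regions of both Sox9-deficient lists that lacked a control peak took the same course, with 34.6%, 10.8% and 0.681% in the first 3 of these bins.

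**Figure D2:**
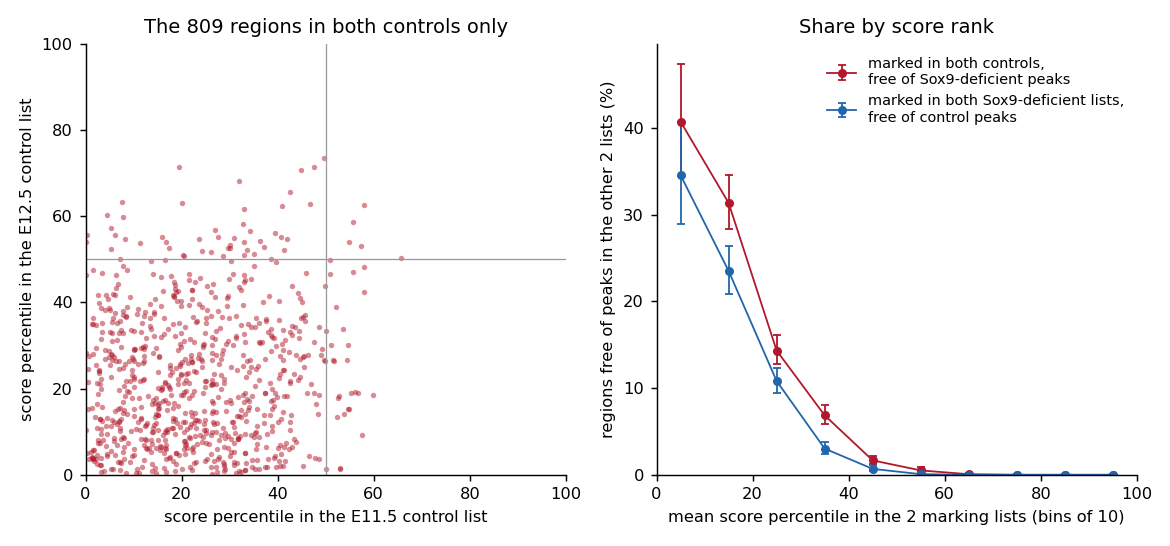
Left, score percentile of each of the 809 both-controls-only regions in the E11.5 control list (x axis) and in the E12.5 control list (y axis), with grey lines at 50; only 5 points lie above both lines. Right, percentage of regions free of peaks in the other 2 lists (y axis) by mean score percentile in the 2 marking lists in bins of 10 (x axis), with Wilson 95% intervals; the share falls from 40.7% to 0 for regions of both controls.

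The 20 both-controls-only regions with the highest mean percentile ranged from 47.7 to 61.7, and 10 of the 20 lay inside a protein-coding gene. The highest lay in Cacna2d2, a calcium channel subunit gene, 47327 bp from its nearer end (chr9:107478843-107482019, mm10), with percentiles of 49.8 at E11.5 and 73.6 at E12.5 and no Sox9-deficient peak within 38957 bp. The next lay in Smarcc1, a subunit of the SWI/SNF chromatin remodelling complex (58.0 and 62.6), with the nearest Sox9-deficient peak 71280 bp away. A region in Wwp2 (47.6 and 71.4), the ubiquitin ligase gene that hosts the cartilage microRNA miR-140, came next, and a region in Chst3, which encodes a chondroitin 6-O-sulphotransferase, was the 5th (44.9 and 70.8). The 5 regions above percentile 50 in both controls had Smarcc1, Plekhm3, Ggct, Cd83 and Mgll as their nearest genes. The other nearest genes among the 20 were Snx4, Dab2ip, the glutamate transporter gene Slc1a3, Cd109, Lpp, Stat5b, Slc39a11, Arhgef26, Mgmt, Igsf8, Spring1 and Slc4a3. Arhgef26 also held the widest region, of 5742 bp, followed by regions near Tmem167 (3725 bp), in Cacna2d2 (3177 bp), in Vwa8 (3055 bp) and near Stau2 (3008 bp).

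The regions lay away from gene ends. Of the 809, 55 (6.80%, Wilson 95% interval 5.26 to 8.75%) lay within 1000 bp of an end of a protein-coding gene, against 49.5% of regions in all 4 lists, 25.5% of all regions and 5.79% (4.15 to 8.02%) of the 570 regions in both Sox9-deficient lists only. The median distance to a gene end was 33719 bp, against 1234.5 bp for regions in all 4 lists and 37218.5 bp for the 570. Gene bodies held 448 of the 809 regions (55.4%), against 62.3% of all regions and 47.7% of the 570. Over 100 kb from any gene end lay 191 (23.6%), against 17.2% of all regions and 21.6% of the 570. Rank moved with this measure: regions of both controls within 1 kb of a gene end had a median mean percentile of 78.9, and those over 100 kb away 47.4. Among regions of both controls with a mean percentile up to 30, the share without a Sox9-deficient peak was 13.1% (9.77 to 17.2%) within 1 kb of a gene end and 24.8% (21.5 to 28.5%) beyond 100 kb. Above 30 the shares were 0.140% and 2.19%. Rank was not held equal in that part, with a median mean percentile of 79.6 within 1 kb and 53.9 beyond 100 kb. Up to 30 these medians were 24.1 and 21.9.

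**Figure D3:**
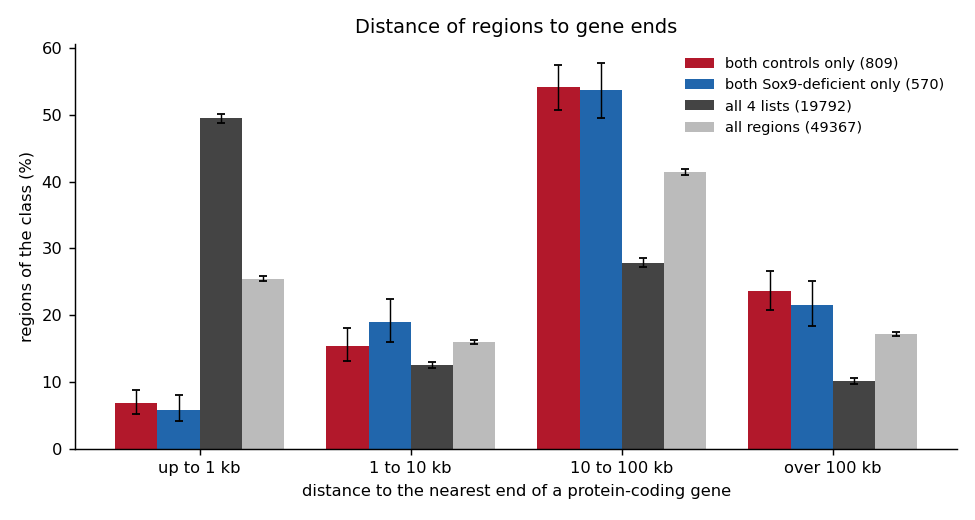
Percentage of the regions of each class (y axis, with Wilson 95% intervals) by distance to the nearest end of a protein-coding gene (x axis). Both-controls-only regions (red) and regions in both Sox9-deficient lists only (blue) have 6.80% and 5.79% within 1 kb, against 49.5% of regions in all 4 lists.

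A RefSeq transcription start lay within 1000 bp of 27 of the 55 regions at gene ends, and 28 had a gene end but no listed start. By rank they were led by regions at Filip1l (percentiles 39.6 and 49.5), Vwa8 (20.1 and 63.0), the lens filament gene Bfsp2 (59.8 and 18.6), Lrrc32 (51.8 and 26.5) and the homeobox gene Otx1 (56.8 and 19.0). Pax9, a paired-box factor of the sclerotome, followed with percentiles of 31.9 and 43.6 at its left end (chr12:56691008-56692862), where the start of the predicted gene Gm15524 also lies. B3galt5, Cphx2, Asxl3, Chad, Tekt2, Gstt3, the Polycomb group gene Pcgf5, the endothelial gene Cd93, Ccdc105, Cdkl2, the desmosomal cadherin gene Dsc3, Uqcc1, Clic6 and Tagln completed the 20 highest. At Chad the region (chr11:94563952-94565446) had percentiles of 43.8 and 27.7, and the nearest peaks of the lists labelled Sox9null and Sox9cKO were 14150 and 14068 bp away. At Runx3 the region (chr4:135119262-135120509) ended 136 bp before the gene, ranked low (20.4 and 7.81) and was 25447 and 22894 bp from the nearest Sox9-deficient peaks. That region held the start of Gm16225, which is not among the protein-coding genes, and not the start of Runx3.

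Many of the regions had Sox9-deficient peaks nearby. The median gap to the nearest such peak was 7571 bp (range 3 to 556160 bp), 109 regions (13.5%) had one within 1000 bp and 578 (71.4%) within 20 kb. For the 570 regions in both Sox9-deficient lists only, the median gap to a control peak was 6492.5 bp, with 17.2% within 1000 bp. The closest gaps were 3 bp in Bbox1, 4 bp near Alg10b and 4 bp near Gprc5c, and these regions had mean percentiles of 19.9, 21.5 and 18.5. Just outside the rule, regions of both controls were overlapped by a Sox9-deficient peak over 14 bp near Cpn2, 30 bp near 1700018B08Rik and 40 bp near Pfdn4, and 15 such regions were overlapped over at most 200 bp.

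Along chromosomes the regions were mostly scattered. Of the 809, 672 had no other both-controls-only region within 100 kb, and 137 (16.9%) formed 58 pairs, 4 groups of 3, 1 of 4 and 1 of 5. Of all regions within 100 kb of a both-controls-only region, 2.09% were of the same class, which is 1.27 times the 1.64% over all regions. The same ratio was 1.34 for the 570 regions in both Sox9-deficient lists only, 1.5 for E11.5 control plus labelled Sox9cKO and 2.22 for E12.5 control plus labelled Sox9null. The share per chromosome ran from 1.29% of regions on chromosome 2 to 2.05% (Wilson 95% interval 1.61 to 2.60%) on chromosome 1, and chromosome X was lower with 5 of 839 (0.596%, 0.255 to 1.39%). The Y chromosome had 0 of 19 regions.

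The group of 5 lay at the left end of Slc39a11, a zinc transporter gene and the next protein-coding gene to the right of Sox9. It held 3 regions between the genes and 2 inside Slc39a11, and none lay within 300 kb of Sox9. It spanned 77.1 kb (chr11:113183429-113260482) and held 8 regions, of which 5 were both-controls-only and 1 was in all 4 lists. Its first region began 395.7 kb from the right end of Sox9 and had percentiles of 58.0 at E11.5 and 42.4 at E12.5, with the nearest peaks of both Sox9-deficient lists over 15 kb away (15968 and 15898 bp). The second, 400.5 kb from Sox9, had percentiles of 6.39 and 46.4, and the third, at 433.1 kb, 24.6 and 29.6. The 2 others lay inside Slc39a11 at 466.7 and 470.9 kb, with 39.0 and 17.3 for the former and 4.62 and 40.9 for the latter. A further region in Slc39a11 at 651.4 kb had percentiles of 49.8 and 43.9. Between Sox9 and Slc39a11, 3 of 31 regions (9.68%) were both-controls-only, and in Slc39a11 it was 3 of 25, against 1.64% of all regions. Of regions marked in both controls they were 3 of 12 and 3 of 10, against 3.50% overall. Both stretches hold parts of the group of 5, which was found in these same data, so these shares only describe it. On the other side of Sox9, in the 1055.9 kb up to Gm11677, 0 of 52 regions were both-controls-only. Of the 52, 12 were marked in both controls, and the 1 region over Sox9 itself was in all 4 lists. Regions in both Sox9-deficient lists only made up 1.15% of all regions. Between Sox9 and Slc39a11 they were 2 of the 31, in Slc39a11 0 of the 25 and on the other side 3 of the 52.

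**Figure D4:**
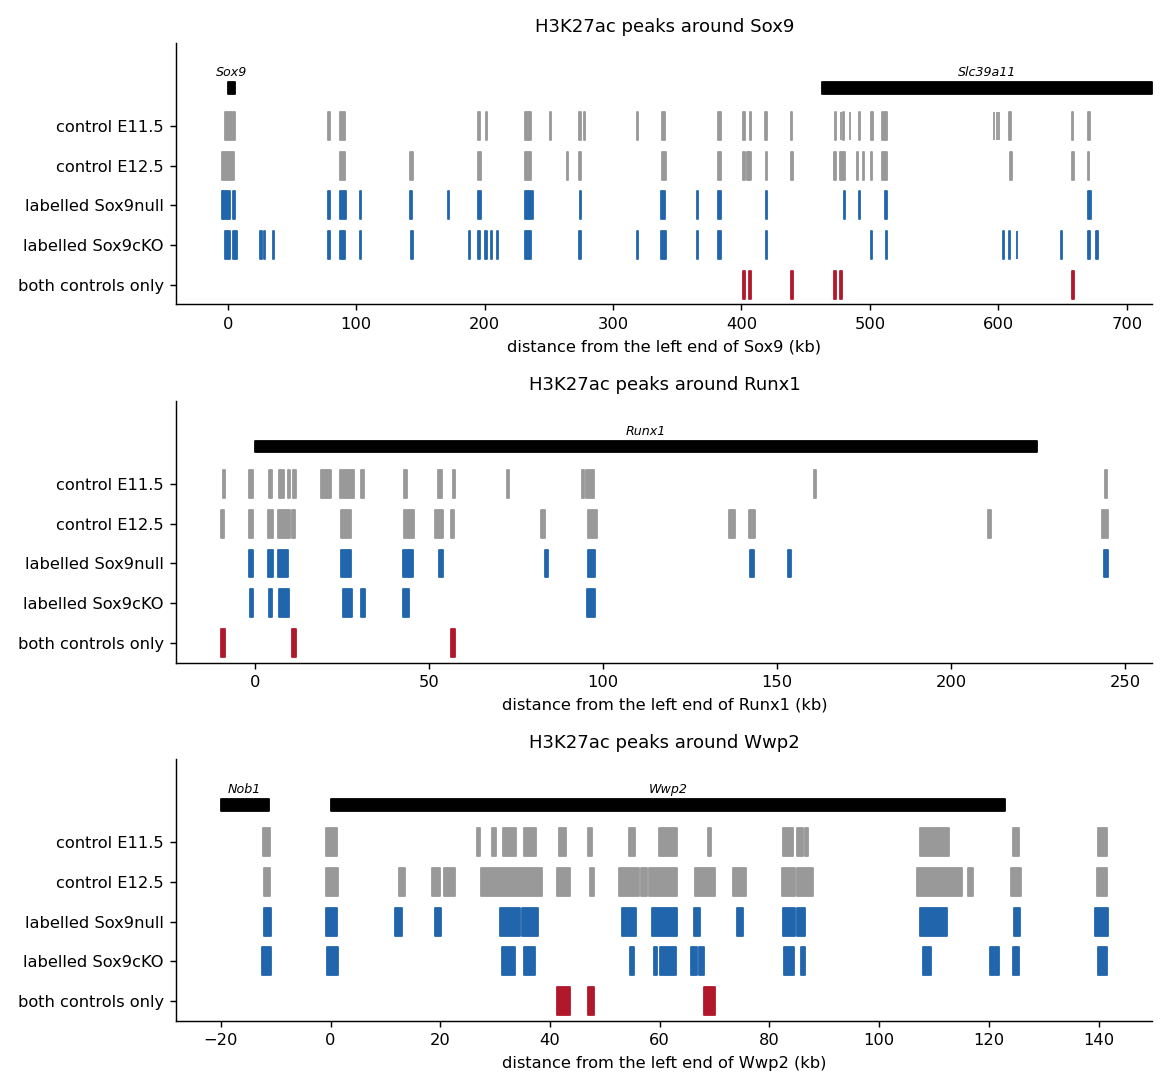
H3K27ac peaks of the 4 lists and both-controls-only regions (rows) around Sox9, Runx1 and Wwp2, by distance from the left end of each gene in kb (x axis), with gene bodies in black. Controls are grey, Sox9-deficient lists blue and both-controls-only regions red; 5 red regions group between 400 and 480 kb right of the left end of Sox9.

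The group of 4 lay at Runx1, a Runt factor of early chondrogenesis and of blood formation, and Clic6. It spanned 160.9 kb on chromosome 16 with 14 regions in all, and its mean percentile of 13.7 was low. Within Runx1 plus 20 kb, 3 of 23 regions were both-controls-only, with percentiles of 1.77 and 3.14 for the region 8611 bp left of the gene, 31.6 and 13.6 for one in the gene near its left end, and 6.73 and 2.88 for one further in. A pair 216074 and 245694 bp right of Runx1 ranked higher, with 45.1 and 40.2 for the nearer region and 38.8 and 15.4 for the farther. These were named after their values were seen. The groups of 3 lay in Wwp2, in the anion transporter gene Slco3a1, in Ttll5, and near the fatty acid binding protein genes Fabp5, Pmp2 and Fabp4. The tightest pairs lay at Lrp5, a Wnt co-receptor gene (2 bp apart), at the axon guidance receptor gene Robo2 (175 bp apart), at Lrmda (2098 bp apart), and at Sox4 (3801 bp apart). Peaks had to share a base to be merged, so near-touching stretches as at Lrp5 and Robo2 count as separate regions. The 2 regions of Sox4 lay 109288 and 115031 bp from the gene.

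With a window of the gene and 20 kb to either side, 649 of 21887 protein-coding genes (2.97%) had a both-controls-only region, or 4.36% of the 14882 genes with a region of both controls. With 3 such regions there were 11 genes: Slc39a11, Ttll5, the cAMP phosphodiesterase gene Pde4d, Lrmda, Runx1, the ephrin gene Efna5, Prdm16, Nav2, Slco3a1, the teneurin gene Tenm4 and Wwp2. Several of these are long, up to 1301.8 kb for Pde4d, against a median of 17.2 kb over all genes.

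Chondrogenic regulators had such a region in 6 of 29 genes (20.7%), against the 2.97% of all genes. The median gene length was 21.1 kb over the 29, but most of the 6 are longer, and a longer gene has a wider window. Sox5 spans 953.9 kb, Runx2 318.8 kb, Runx1 224.6 kb, Arid5b 186.8 kb, Runx3 57.3 kb and Pax9 21.1 kb. Of the 123 regions of both controls counted over the 29 genes, 9 (7.32%) were both-controls-only, 3 of them at Runx1. The share was 2.09% over all genes, where a region counts once for each gene it lies near. It was 3.21% over all 13 lists together, and 3.50% when each region of both controls is counted once. Counted in the same way it was 3 of 30, all at Runx1, for erythroid and macrophage genes, and 8.82% (3 of 34) for ectoderm genes. For the cartilage matrix list it was 6.56% (4 of 61), with 3 of the 4 at Wwp2. The regulators thus did not have the highest share. All these lists were chosen with earlier results of these data known. Sox5, the SOX9 partner gene, held 2, of which one (percentiles 40.4 and 23.4, chr6:144250488-144251825) was 11856 and 12019 bp from the nearest peaks of the lists labelled Sox9null and Sox9cKO. The other (29.2 and 14.9, chr6:143854030-143855037) was 184115 and 311079 bp from them. Runx2, the osteoblast and hypertrophic chondrocyte factor, held 1 (9.23 and 21.8) and so did Arid5b (32.9 and 16.9), a co-regulator of SOX9. With Runx1, Runx3 and Pax9 described above, the Runt family genes were 3 of the 6. When only the higher-scoring 50% of every list was kept, none of these regions was left at the 6 genes, and Sox5 had a different one. No region of the class lay within 20 kb of Sox6 or Sox9, and the nearest was 253.5 and 395.7 kb away. Sox11, which with Sox4 belongs to the SoxC group, had 2 regions 131471 and 231967 bp from the gene, outside the window counted here.

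**Figure D5:**
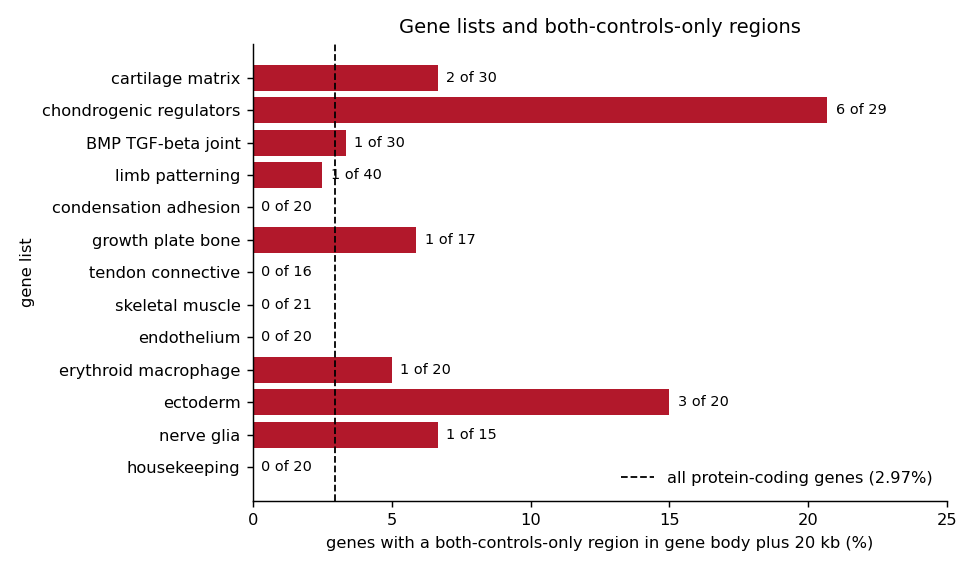
Percentage of the genes of each list (y axis) with a both-controls-only region in the gene or within 20 kb of it (x axis), with counts beside the bars. The dashed line marks 2.97% of all protein-coding genes; chondrogenic regulators reach 6 of 29 and ectoderm markers 3 of 20.

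Of the 30 genes of the cartilage matrix list, Wwp2 and Chad (6.67%) had a both-controls-only region. Wwp2, a ubiquitin ligase gene, is on this list but encodes no matrix protein, so Chad was the only matrix gene with one. Wwp2 held 3, in 123 kb with 23 regions in all, 10 of them in all 4 lists. The first (chr8:107477679-107479904) ranked high at percentiles of 47.6 and 71.4, the second ranked low at 4.5 and 9.41, and the last had 7.91 and 48.4 and lay only 22 bp from a peak of the list labelled Sox9cKO. Col2a1, the main cartilage collagen gene, and Acan, which encodes aggrecan, had none within 20 kb. Their nearest regions lay 28008 bp away for Col2a1 and 30626 bp away for Acan. The former (percentiles 17.5 and 52.5, nearer to Senp1) was 3719 and 4160 bp from the nearest peaks of the lists labelled Sox9null and Sox9cKO. The latter (13.3 and 39.6) had no Sox9-deficient peak within 29527 bp. Within 100 kb the count was 4 of 30 genes of this list (13.3%), against 7.95% of all genes. This share was near that of all 13 lists together, where it was 38 of 296 genes (12.8%). Among the other lists it was 6 of 30 for BMP and TGF-beta signalling and joints, and 2 of 20 for housekeeping genes.

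Of 30 genes of BMP and TGF-beta signalling and joints, only Tgfb2 had such a region within 20 kb (16.4 and 36.4, 11916 bp from the gene). Of 40 limb patterning genes, only Prrx1, a homeobox gene of limb mesenchyme, had one (16.7 and 0.571). Among growth plate genes Fgfr2 had 1 of 17, a region in the gene with percentiles of 35.0 and 48.4 and no Sox9-deficient peak within 12573 bp. The condensation, tendon, skeletal muscle, endothelial and housekeeping lists had none in 20, 16, 21, 20 and 20 genes. Against the 2.97% of all genes, counts of 0 or 1 in lists of this size are near the background.

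Markers of other cell types in the limb bud were marked unequally between the lists. All 10 limb mesenchyme markers had a peak within 1000 bp of a gene end in every list. Of 20 ectoderm markers it was 10 in the E11.5 control, 9 in the E12.5 control, 6 in the list labelled Sox9null and 13 in that labelled Sox9cKO. The counts in the same order were 9, 7, 6 and 10 of 21 skeletal muscle markers, 8, 5, 5 and 10 of 20 endothelial, 7, 4, 4 and 8 of 20 erythroid and macrophage, and 7, 5, 5 and 7 of 15 nerve and glia markers. In that order the lists held 36045, 32821, 28419 and 36937 peaks. For none of these cell types did a longer list have a lower count than a shorter one. The part of list length in these counts was not tested. Of 20 ectoderm genes, 3 had a both-controls-only region within 20 kb, and 1 within 5 kb. One lay in Grhl2 (15.4 and 27.6), one 9469 bp from Sp6 (23.3 and 12.7, at the ends of Scrn2 and Lrrc46) and one 16136 bp from Cdh1 (16.5 and 6.26). Both-controls-only regions also lay at Ngfr (30.3 and 16.7), 1 of 15 nerve and glia genes, and at Runx1, 1 of 20 erythroid and macrophage genes. Regions in both Sox9-deficient lists only also lay at 3 of the 20 ectoderm genes, and Grhl2, Sp6 and Cdh1 had no both-controls-only region when the upper 50% by score or equal numbers of top peaks were used. The part of cell makeup in the both-controls-only regions was not tested.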

How the data were processed

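H3K27ac chromatin immunoprecipitation and sequencing libraries of mouse limb buds were used, 1 for each of 4 groups. The other 20 samples of the series were not analysed here. The deposited peak lists give positions and a score for each peak, and the peak names in the files name MACS. What the score measures, the MACS version and settings, the aligner and the use of an input library are not given in the sources used. Genome build mm10, CASAVA 1.8 and deepTools are named per the submitters' processing notes. The lists hold 28419 to 36937 peaks with a lowest score of 50.01 to 50.03 and a highest of 3233.06 in each. The score is the authors' and served for ranks and filters inside a list alone. Lists were made per sample. Depth in reads is unknown, and numbers and widths of peaks can move with it.

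Peaks sharing 1 bp were merged, and positions were written 1-based. Genes (21887 protein-coding) and promoters came from RefSeq tables of GRCm38.p6, the assembly of mm10. The gene table gives no exons. Distances run from edge to edge. Wilson intervals cover counting error only, and regions are not replicates. The rule for named genes took the 20 highest-ranked regions, groups under 100 kb apart, genes with 3 or more regions, list genes with a region, regions at gene ends, the 5 widest and those at the edge of the rule. The 13 gene lists (296 genes) and the regions themselves were chosen with earlier results of these data known. Counting was tested on simulated lists. Tables were computed in Python 3.11.15 (pandas 2.3.3, numpy 2.4.6), intervals with scipy 1.17.1, and figures drawn with matplotlib 3.10.9.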

Additional observations from a re-analysis of the deposited data

How the results depend on the processing

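The number of both-controls-only regions depended on the score threshold. With the upper 50% of each list it was 210, of which 5 overlapped the original 809, with 84 regions in the opposite class. With equal numbers of top peaks per list it was 456, of which 286 original regions remained, and the opposite class was then larger (585). With the upper 50% of the controls alone 5 regions were left against 4621 in the opposite class, since only the control lists were shortened, and 0 of the 5 lay at a gene end, near another region or near a Sox9-deficient peak, or at a list gene. Merging at 500 bp gave 768, requiring the control peaks to overlap over 50% of the shorter gave 746, autosomes alone gave 804 and exchanging the Sox9-deficient lists 809. Leaving out 1 list gave 1642 (labelled Sox9null) to 6254 (E12.5 control) regions, with 5140 without the E11.5 control and 2522 without the list labelled Sox9cKO.

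The share at a gene end was 0% with the upper 50% of the controls alone, 6.72 to 8.57% under the other thresholds and merging rules, 5.69% at 500 bp, 9.77% at 2500 bp, 14.1% with all RefSeq genes and 3.83 to 18.2% with 1 list left out. The share within 100 kb of another region was 7.62% with the upper 50%, 9.43% with the same number of top peaks, 8.41% at 50 kb, 28.7% at 200 kb and 34.7 to 64.2% with 1 list left out. The share with a Sox9-deficient peak within 1 kb was 3.81% with the upper 50%, 9.21% with the same number of peaks, 5.60% with merging at 500 bp, 7.79% at 500 bp, 40.2% at 5 kb and 7.89 to 16.7% with 1 list left out. List genes with a region numbered 15, against 9 with the upper 50%, 38 at 100 kb and 32 to 106 with 1 list left out. With equal numbers of top peaks, 8 of the 15 kept an original region (Arid5b, Chad, Fgfr2, Ngfr, Pax9, Runx1, Sox5 and Wwp2). With the upper 50% it was 0 of 15, and the regions then found at Wwp2, Sox5 and Fgfr2 were others. The causes were not tested. No paired analysis was possible because no result comes from a test, and the groups share no more than 1 replicate number. Each stage has 1 control and 1 Sox9-deficient library.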

Other observations

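By nearest gene, 14 genes had 3 or more both-controls-only regions, with 5 for Runx1 and Slc39a11 and 4 for Fgfr2, the fibroblast growth factor receptor gene of limb outgrowth and skeletal growth. The 4 regions of Fgfr2 were spread on both sides of the gene. Beside the one in the gene, they lay 174521, 160805 and 57574 bp from it, with E11.5 percentiles of 26.5, 17.0 and 9.77 and E12.5 percentiles of 16.8, 15.1 and 27.3. Ets1, an ETS family factor gene, had 3, of which the region inside the gene ranked highest (26.9 at E11.5 and 56.9 at E12.5). Epha4, an ephrin receptor gene of limb innervation, and Zfp703 also had 3 each, and 2 lay near the homeobox gene Dlx2, 65919 and 105113 bp away.

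Of 1005 microRNA hairpins, 18 (1.79%) lay within 20 kb of a both-controls-only region, against 15 (1.49%) for the 570 regions in both Sox9-deficient lists only and 599 (59.6%) for all 23091 regions of both controls. The hairpins named here were chosen after their values were seen. Mir429, Mir200a and Mir200b, which belong to the epithelial miR-200 family, lay 2111, 3102 and 3887 bp from the region at Ttll10 (percentiles 2.73 and 39.8). Mir100 and Mirlet7a-2 lay 13036 and 18327 bp from another region, and Mir101b 13305 bp from one on chromosome 19.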
